A study of Homo sapiens with 6 samples.

Results

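Prostanoid metabolism was examined through 10 genes in PC-3 prostate cancer cells depleted of CdGAP and in control cells. The genes were taken by symbol from the 64253 genes counted in 6 libraries. They were PLA2G4A and LPCAT2 for phospholipid release and remodelling, PTGS1 and PTGS2 for the cyclooxygenase step, PTGES, PTGES2 and PTGES3 for prostaglandin E2 synthesis, PTGER2 and PTGER4 for its receptors, and HPGD for its breakdown. All 10 were among the 16439 genes that edgeR's expression filter kept, but PTGS1 and LPCAT2 passed that filter only through their reads in CdGAP-depleted cells. The 10 genes were selected on knowledge that included their fold changes in this very comparison, so those differences are given as a description and without a p-value.

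The comparison asked which transcripts differ when CdGAP is depleted. CdGAP, the product of ARHGAP31, is a GTPase-activating protein that switches off the small GTPases Rac1 and Cdc42, and PC-3 is a cell line grown from a bone metastasis of a prostate tumour. RNA was sequenced from 3 samples of PC-3 cells with a short hairpin RNA against CdGAP (spelled shCDGAP in the labels and shCdGAP here) and 3 samples with a control hairpin (spelled shCONTROL in the labels and shCon here). The labels name no other treatment, time point or batch. The methods describe CdGAP-depleted PC-3 cells as puromycin-selected and then grown out of single cells, and do not describe such cloning for control cells. Depletion and the properties of a clone therefore cannot be told apart in these libraries, and how many clones were sequenced is not given in the sources used here. The methods call the samples of a group independent without saying whether they were separate cultures, so p-values cover only the spread between these samples.

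The libraries held between 33182796 and 43154039 counted read pairs, called reads below. ARHGAP31 (chromosome 3, 119294373 to 119420714) had 26.4, 27.1 and 26.9 CPM (reads scaled to a common library size) in shCdGAP libraries and 58.9, 60.6 and 58.2 CPM in shCon libraries, so its level after depletion was 45.3% of control. The study reports a deeper loss of CdGAP mRNA and protein in a shCdGAP clone of PC-3 cells, measured by quantitative PCR and immunoblot. The reason for the difference was not tested. ShCdGAP replicate 2 stood apart from its group: its chi-square per gene against replicates 1 and 3 was 26.6 and 32.7, against 2.58 to 6.89 for the other pairs within a group. Its ARHGAP31 level, 27.1 CPM, lay with those of the other shCdGAP libraries. The 5 epithelial markers KRT8, KRT18, KRT19, EPCAM and CDH1 had reads in every library, summing to 972 to 1226 CPM in shCdGAP and 741 to 762 CPM in shCon libraries, and KRT19 and EPCAM were called higher. CDH1, which encodes E-cadherin, went the other way, with 29.6, 50.5 and 25.4 CPM in shCdGAP libraries and 56.6, 58.4 and 59.8 CPM in shCon libraries, without overlap (log2 fold change -0.72, standard error 0.265, not past an adjusted p of 0.01 by edgeR). KLK3, which encodes prostate-specific antigen and which PC-3 cells are known to lack, had no read, and TMPRSS2 had at most 2 reads in a library. Of 10 leukocyte, endothelial and fibroblast markers, CD3E had no read, PTPRC and VWF had at most 1 read in a library, and the list summed to 337 to 349 CPM against 307 to 313 CPM, with CD68, COL1A1 and PDGFRB called higher. Most of that sum was COL1A2, at 282, 281 and 276 CPM against 289, 283 and 287 CPM (log2 fold change -0.04). PECAM1 had 96, 261 and 93 reads in shCdGAP libraries and 236, 230 and 181 in shCon libraries. In bulk RNA, more RNA per cell and a larger share of cells that hold it cannot be told apart.

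Prostanoids are lipid signals made on demand from arachidonic acid, which cells keep esterified in membrane phospholipids. Cytosolic phospholipase A2 frees the fatty acid, a cyclooxygenase turns it into prostaglandin H2, and terminal synthases turn that into prostaglandin E2 and related products, which act on G protein-coupled receptors and are inactivated by oxidation. PTGS1 encodes cyclooxygenase-1, the form found in many resting tissues, and PTGS2 encodes cyclooxygenase-2, the inducible form that is frequently elevated in epithelial cancers and is the target of anti-inflammatory drugs.

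The promoters of PTGS2, PTGS1 and PLA2G4A are shown because these 3 genes had the largest differences among the 9 of 10 prostanoid genes that matched an entry of the promoter table. LPCAT2 was the gene without a match. PTGS1 and HPGD had 2 promoter entries each and PTGES2 had 3, and only the entry nearest the gene's annotated 5′ end was used. Each sequence holds the 250 bases before the RefSeq start on GRCh38.p14, written from 5′ to 3′ on the gene's own strand, at chr1:186680424-186680673 for PTGS2 (minus strand), chr9:122370283-122370532 for PTGS1 (plus strand) and chr1:186828699-186828948 for PLA2G4A (plus strand). Capitals mark matches, on either strand, to 6 motifs: TATAAA (the TATA box), TTNNGNAA (the C/EBP motif), CGTCA (the core of the cAMP response element), GGGACTNNC (the start of an NF-kB motif), TGANTCA (the AP-1 motif) and GGGCGG (the GC box).
PTGS2: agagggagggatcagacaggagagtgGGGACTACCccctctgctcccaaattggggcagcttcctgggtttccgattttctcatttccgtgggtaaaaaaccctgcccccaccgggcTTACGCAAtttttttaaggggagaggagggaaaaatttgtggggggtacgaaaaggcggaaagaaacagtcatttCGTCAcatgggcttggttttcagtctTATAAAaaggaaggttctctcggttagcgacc
PTGS1: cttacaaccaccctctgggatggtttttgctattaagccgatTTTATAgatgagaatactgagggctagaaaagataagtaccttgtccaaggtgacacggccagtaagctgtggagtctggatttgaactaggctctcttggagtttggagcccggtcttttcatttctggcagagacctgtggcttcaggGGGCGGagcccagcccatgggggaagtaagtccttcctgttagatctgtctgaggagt
PLA2G4A: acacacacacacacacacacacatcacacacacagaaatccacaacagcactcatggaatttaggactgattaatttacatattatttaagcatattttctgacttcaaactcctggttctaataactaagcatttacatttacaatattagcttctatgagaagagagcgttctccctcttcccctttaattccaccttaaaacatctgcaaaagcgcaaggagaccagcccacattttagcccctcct
The PTGS2 window held an NF-kB match from -224 to -216, a C/EBP match from -133 to -126 that reads on both strands, a cAMP response element core from -58 to -54 and a TATA box from -32 to -27, counted back from the base before the start. The cAMP response element core was found in 21.2% of the 35116 promoters in the table, the TATA box in 10.7%, the C/EBP motif in 33.2% and the NF-kB motif in 4.6%. The PTGS1 window held a GC box from -58 to -53, a motif found in 42.6% of promoters, and a TATA box on the opposite strand from -208 to -203. The PLA2G4A window held none of the 6 motifs, and none of the 9 windows held the AP-1 motif, which 6.57% of promoters held. Of the 9 windows, 3 held the NF-kB motif (PTGS2, PTGES2 and PTGES3) and 4 the cAMP response element core (PTGS2, PTGES3, PTGER2 and HPGD). No match in the 3 windows shown overlapped one to another motif. A match is a run of letters and not a bound site. CpG dinucleotides numbered 9 in the PTGS2 window, 4 in that of PTGS1 and 2 in that of PLA2G4A, against a median of 11 over all promoters. The PTGES window held 9 and that of HPGD 4, while the windows of PTGES2, PTGES3, PTGER2 and PTGER4 held 29, 30, 28 and 26 CpG dinucleotides.

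The cyclooxygenase step held the largest difference among the genes with ample reads in both groups, that of PTGS2. PTGS2 (ENSG00000073756, chromosome 1, 186671791 to 186680427, minus strand) had 10537, 12034 and 8910 reads after depletion, against 1285, 1326 and 984 in shCon libraries. Scaled by library size, its level was 259.9, 276 and 259 CPM in shCdGAP libraries and 30.6, 31.4 and 29.8 CPM in control cells. Every shCdGAP library was far above every shCon library, and within each group the values lay close together. The means were 265 ± 9.67 and 30.6 ± 0.818 CPM (SD, n = 3), an 8.66-fold difference (log2 fold change 3.11, standard error 0.0435). Leaving out any 1 library kept the log2 fold change between 3.07 and 3.12. PACERR, the antisense RNA that starts at the PTGS2 promoter, had 1 read in all 6 libraries together.

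PTGS1 (ENSG00000095303, chromosome 9, 122370530 to 122395703, plus strand) was near the limit of detection. Its reads numbered 17, 80 and 21 in shCdGAP libraries, against 1 read in each shCon library. The groups did not overlap, and most of the reads came from shCdGAP replicate 2. Summed over each group, 118 reads stood against 3, a ratio of 38.9 after scaling with a 95% exact interval of 13.0 to 191 that covers counting error only. The fitted log2 fold change of 5.09 (standard error 0.973) depends on the prior count and dropped to 4.14 without shCdGAP replicate 2, and PTGS1 was no longer called when any 1 of the shCon libraries was left out. Per gene length, in RPKM (CPM divided by the gene length in kilobases), the level of PTGS2 in shCdGAP libraries was 681, 165 and 466 times that of PTGS1. In every shCon library the same ratio rested on a single PTGS1 read.

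Phospholipid release and remodelling also differed. PLA2G4A encodes cytosolic phospholipase A2 alpha, the calcium-dependent enzyme that prefers arachidonate-containing phospholipids. The gene (ENSG00000116711, chromosome 1, 186828953 to 186988981, plus strand) had 36.4, 44.2 and 36.3 CPM in the shCdGAP libraries and 10.4, 10.2 and 9.78 CPM in the shCon libraries. The groups were well apart, and shCdGAP replicate 2 was again the highest. The means, 39.0 ± 4.53 and 10.1 ± 0.323 CPM (SD, n = 3), differed 3.85-fold (log2 fold change 1.94, standard error 0.0868, and 1.83 to 1.98 with 1 library left out).

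LPCAT2 (ENSG00000087253, chromosome 16, 55508998 to 55586670, plus strand) encodes an acyltransferase that remodels lysophosphatidylcholine and can form platelet-activating factor. Its reads numbered 797, 1220 and 672 after depletion, against 1, 1 and 0 in shCon libraries. The transcript was thus well measured after depletion, at 22.4 ± 4.85 CPM (SD, n = 3), and close to undetected in control cells. The ratio of the summed reads, 2689 against 2, was 1330 after scaling, with a 95% exact interval of 368 to 10990 for counting error. The fitted log2 fold change of 10.12 (standard error 0.360) is no bound, since it depends on the prior count.

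**Figure D1:**
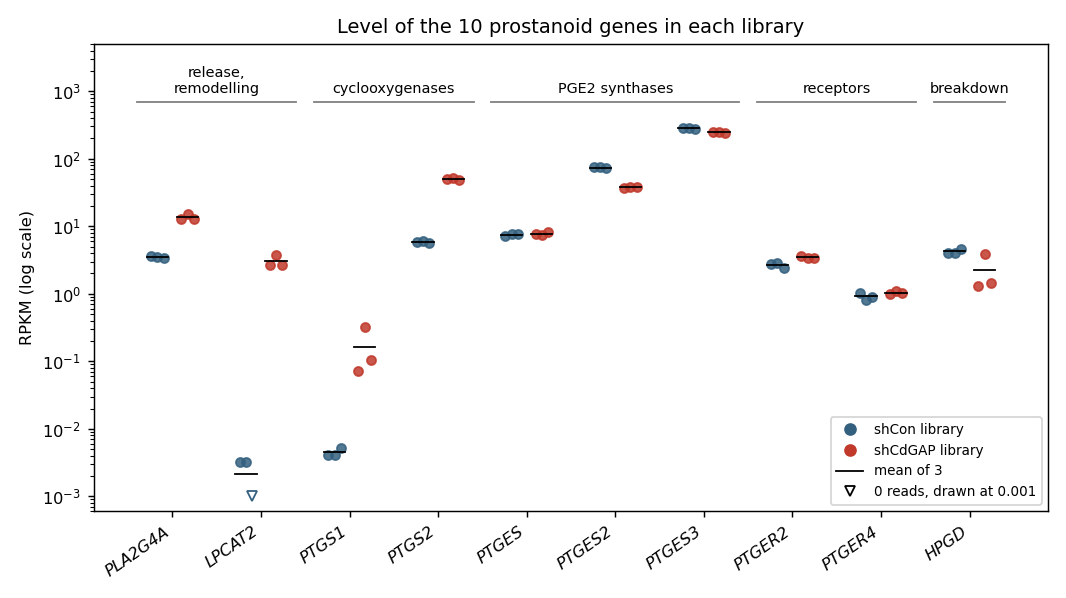
Level of each of the 10 genes in RPKM, on a log scale, in every shCon library (blue) and shCdGAP library (red), with the mean of the 3 libraries of a group as a black bar and a library with 0 reads drawn as an open triangle at 0.001. PTGS2 moved from 5.81 to 50.3 RPKM and passed PTGES2, LPCAT2 and PTGS1 were near the bottom of the scale in shCon libraries, and HPGD had 1 shCdGAP library beside the shCon libraries.

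The 3 prostaglandin E2 synthases did not move with PTGS2. PTGES encodes microsomal prostaglandin E synthase-1, the inducible synthase that is often induced together with cyclooxygenase-2. The gene (ENSG00000148344, chromosome 9, 129738331 to 129753047, minus strand) had 14.5, 14.1 and 15.8 CPM in the shCdGAP libraries and 13.5, 14.4 and 14.3 CPM in the shCon libraries. The groups overlapped, and the log2 fold change was 0.07 (standard error 0.0681). PTGES2, whose product is the membrane-associated synthase-2, was lower after depletion. The gene (ENSG00000148334, chromosome 9, 128120693 to 128128462, minus strand) had 112.9, 117.6 and 114.5 CPM in the shCdGAP libraries and 225.8, 228.2 and 220.8 CPM in the shCon libraries. All shCdGAP libraries lay well below all shCon libraries, by 1.96-fold on average (log2 fold change -0.97, standard error 0.0340), just short of the fold limit of 2 used for calls. PTGES3 encodes p23, a co-chaperone of Hsp90 that also has cytosolic synthase activity. The gene (ENSG00000110958, chromosome 12, 56663341 to 56688408, minus strand) had the highest level of the 10 per gene length, with 849, 843 and 828 CPM against 966, 977 and 937 CPM, a small difference (log2 fold change -0.19, standard error 0.0334) without overlap. Its 5 processed copies had 210 to 314 reads per library in sum, against at least 28450 for PTGES3 itself, and reads that align to several places were not counted.

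The genes for the EP2 and EP4 receptors of prostaglandin E2, PTGER2 and PTGER4, had small differences. These receptors raise cyclic AMP through Gs. PTGER2 (ENSG00000125384, chromosome 14, 52314305 to 52328606, plus strand) had 8.93, 8.47 and 8.47 CPM in the shCdGAP libraries and 6.75, 7.01 and 5.87 CPM in the shCon libraries. The groups did not overlap, but they lay close to each other (log2 fold change 0.39, standard error 0.0914). PTGER4 (ENSG00000171522, chromosome 5, 40679498 to 40693735, plus strand) had 3.92, 4.39 and 4.04 CPM against 4.12, 3.25 and 3.54 CPM. Its groups overlapped (log2 fold change 0.18, standard error 0.123).

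HPGD, which encodes 15-hydroxyprostaglandin dehydrogenase, the enzyme that starts the breakdown of prostaglandin E2, was the gene with ample reads on which the shCdGAP libraries disagreed most. The gene (ENSG00000164120, chromosome 4, 174490177 to 174523154, minus strand) had 7.23, 21.8 and 8.03 CPM in the shCdGAP libraries and 22.6, 22.3 and 25.9 CPM in the shCon libraries. Replicates 1 and 3 were well below every control library, whereas replicate 2 was just under the lowest of them. With all libraries the log2 fold change was -0.92 (standard error 0.465) and HPGD was not called. Without shCdGAP replicate 2 it was -1.64 and HPGD was called lower. That replicate was also the highest of its group in PTGS1, LPCAT2 and PLA2G4A, and the part of this library in these values was not tested.

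**Figure D2:**
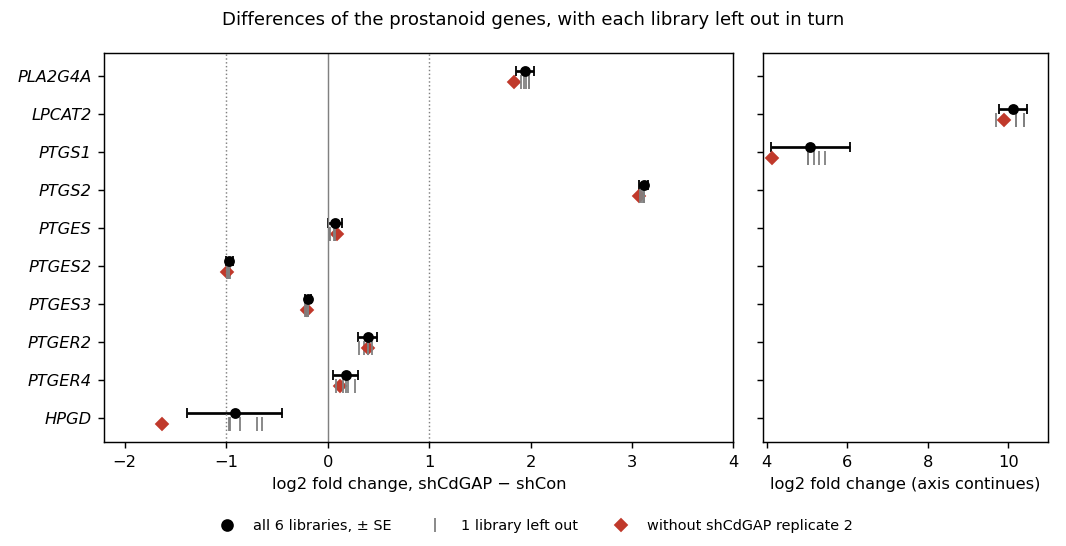
Log2 fold change (shCdGAP minus shCon) of the 10 genes with all 6 libraries (black points, bars are standard errors), with 1 library left out (grey ticks) and without shCdGAP replicate 2 (red diamonds), over an axis that continues in the right panel. Dotted lines mark a log2 fold change of 1 in either direction, and HPGD, at -0.92, moved to -1.64 without that library.

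With calls made at an adjusted p under 0.01 and more than 1 log2 unit of difference, the limits the study used, PTGS2, PTGS1, PLA2G4A and LPCAT2 were called higher. These were 4 of the 10 genes, where edgeR called 8.56% of all tested genes higher. None was called lower by edgeR or DESeq2, where edgeR called 4.19% of all tested genes lower, and 2 were lower at an unadjusted p under 0.05. Calls in either direction covered 12.8% of the tested genes. Without a fold limit 7 of the 10 passed an adjusted p of 0.01, against 46.2% of tested genes, and 8 of the 10 had groups that did not overlap, against 67.1%. Since the genes were picked with this comparison in view, nothing is read from these counts. The median log2 fold change was 0.29 over the 10 genes and 0.01 over all tested genes.

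Per gene length, the order of the levels changed. In control cells the order by mean RPKM was PTGES3 (283), PTGES2 (74.0), PTGES (7.43), PTGS2 (5.81), HPGD (4.26), PLA2G4A (3.52), PTGER2 (2.65), PTGER4 (0.918), PTGS1 (0.00448) and LPCAT2 (0.00213), and no neighbours in this order overlapped. PTGS1 and LPCAT2 had at most 1 read in a shCon library, so their order there rests on gene length and single reads. In CdGAP-depleted cells it was PTGES3 (247), PTGS2 (50.3), PTGES2 (37.9), PLA2G4A (13.6), PTGES (7.80), PTGER2 (3.49), LPCAT2 (3.01), HPGD (2.23), PTGER4 (1.04) and PTGS1 (0.165). PTGER2 with LPCAT2, and LPCAT2 with HPGD, overlapped there. PTGS2 thus passed both PTGES and PTGES2. Its RPKM was 1.33 ± 0.0249 times that of PTGES2 in shCdGAP libraries and 0.0785 ± 0.000831 times in shCon libraries (SD, n = 3). Against PTGES the ratio was 6.48 ± 0.581 and 0.783 ± 0.0335. The ratio of PTGS2 to HPGD, transcripts of a synthetic and a degrading enzyme, was 37.7, 13.3 and 33.9 in shCdGAP libraries and 1.43, 1.48 and 1.21 in shCon libraries. The shCdGAP library with the most HPGD, replicate 2, was just under the lowest control library in HPGD. Its ratio therefore mostly restates the difference of PTGS2.

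The genes whose pattern over the 6 libraries was nearest to that of PTGS2, by Euclidean distance of centred log2 CPM among 10281 well-expressed genes, were LAD1 (distance 0.204), ADAM12 (0.215), DOCK11 (0.218), MMP1 (0.279) and PLCXD3 (0.284). Their log2 fold changes were 3.26, 3.02, 3.04, 3.24 and 3.21. LAD1 encodes ladinin-1, an anchoring filament protein, ADAM12 a metalloprotease of the disintegrin family, DOCK11 a guanine nucleotide exchange factor for Cdc42, and MMP1 interstitial collagenase. With 2 groups of libraries, such a distance mostly finds genes with a fold change like that of PTGS2.

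Position on the genome, which the choice of genes did not use, was described next. PTGS2 and PLA2G4A lie on opposite strands of chromosome 1, 148526 bases apart, and each was the nearest tested gene on one side of the other. Of the 6 tested genes that start within 500 kb of PTGS2, 1 was PLA2G4A, itself among the chosen genes. The other 5 had higher levels after depletion, by 0.21 to 2.40 on the log2 scale with a median of 0.36, whereas the median of the other tested genes of the chromosome was 0.13. With PLA2G4A the median of the 6 was 1.15. The nearest tested gene on the other side of PTGS2, ENSG00000228238, had 36, 52 and 16 reads against 11, 9 and 4. Its fitted log2 fold change was 2.07, and it passed the expression filter only through its reads in shCdGAP libraries. LPCAT2 had 1 tested neighbour in that window, MMP2, which encodes the gelatinase MMP-2. MMP2 (chromosome 16, 55389700 to 55506691) ends 2307 bases before LPCAT2 on the same strand and had 2523, 4049 and 2079 reads in shCdGAP libraries and none in shCon libraries. Both genes were thus almost limited to CdGAP-depleted cells, and replicate 2 was the highest for both. CAPNS2 and ENSG00000261997, which lie within LPCAT2 on the same strand, had at most 9 reads in a library.

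PTGS1, PTGES and PTGES2 all lie on chromosome 9, whose 662 tested genes had a median log2 fold change of -0.42. All 12 tested neighbours of PTGES were lower in shCdGAP libraries (median -0.61, range -1.94 to -0.06), while PTGES itself had 0.07. The nearest of them on either side were PRRX2, a homeobox gene that fell by 1.74 log2 units (standard error 0.126, adjusted p = 4.91e-06, edgeR's quasi-likelihood test), and TOR1B at -0.16 (standard error 0.0435), with an adjusted p of 0.0111 by that test. Of 36 neighbours of PTGES2, 30 were lower (median -0.45), and PTGES2 at -0.97 lay below that median. SLC25A25-AS1, which starts just beyond the end of PTGES2 on the same strand, had 143, 131 and 119 reads against 793, 730 and 716 and fell by 2.53 (adjusted p = 2.38e-07, edgeR's quasi-likelihood test). PTGES2-AS1, which starts beside PTGES2 on the opposite strand, had 7, 11 and 6 reads against 27, 13 and 27, and counting was strand-specific. Of 9 neighbours of PTGS1, 8 were lower (median -0.56, range -0.98 to 0.70), against a fitted 5.09 for PTGS1. For PTGES3, PTGER2, PTGER4 and HPGD the medians of 26, 10, 4 and 2 neighbours were -0.07, 0.06, -0.10 and -0.04. DNA copy number was not measured here, and the part of position in these differences was not tested.

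**Figure D3:**
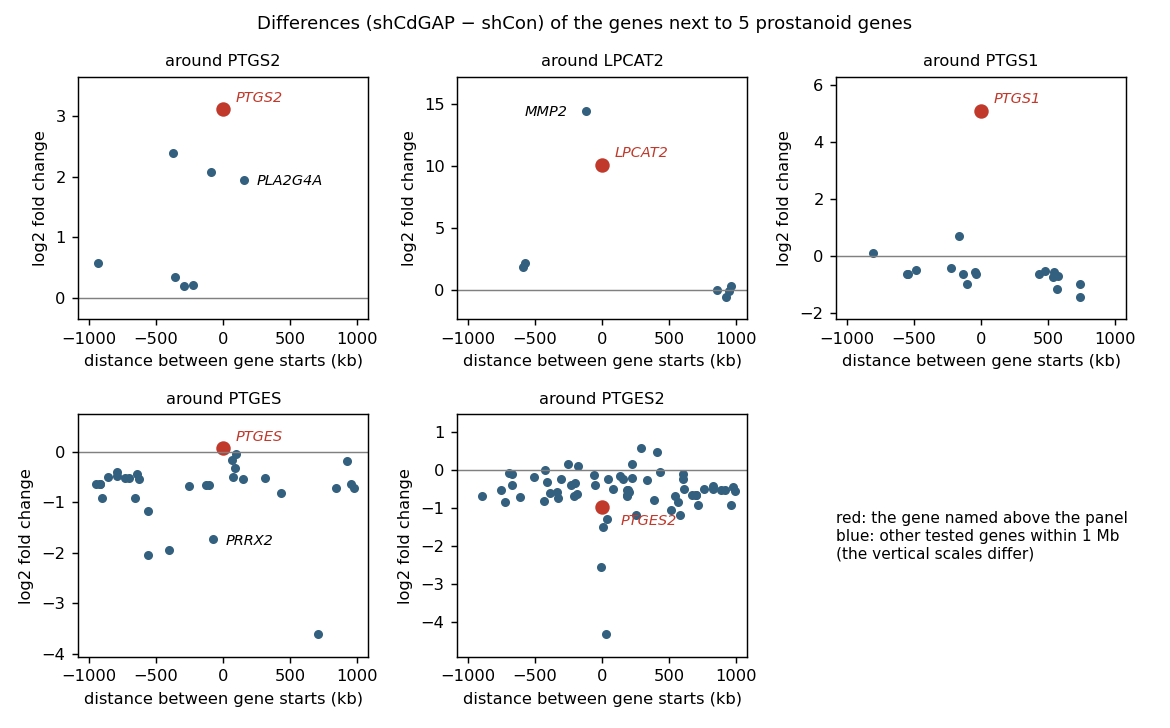
Log2 fold change (shCdGAP minus shCon) of tested genes against the distance of their starts, in kb, from PTGS2, LPCAT2, PTGS1, PTGES and PTGES2 (red), with other genes within 1 Mb in blue and vertical scales that differ between panels. Genes around PTGS2 lay above 0, all 31 other genes around PTGES lay below it while PTGES was at 0.07, and the fitted values of MMP2, LPCAT2 and PTGS1 rest on few or no control reads.

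The rest of the pathway was read through 89 further genes in 10 lists, of which 67 were tested and 7 had no read. These lists too were chosen with earlier results of these data known. Their counts and p-values therefore describe this comparison and are no independent test of the pathway. By edgeR's quasi-likelihood test with Benjamini-Hochberg adjustment over all tested genes, 22 rose, 13 fell and 32 did not pass an adjusted p of 0.01, where 24.1% of all tested genes rose and 22.0% fell. With the fold limit 7 were called higher and 2 lower, where 8.56% of all tested genes were called higher and 4.19% lower. The median log2 fold change of the 67 tested genes of the lists was 0.04. Genes named below that did not reach the fold limit were named after their values were seen. The share of all tested genes at an unadjusted p under 0.05 was not worked out. Counts of a list at that limit are therefore given as a description only.

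Upstream of the cyclooxygenases, 1 of 6 tested phospholipase A2 genes rose and none fell by edgeR or DESeq2 (median 0.09, and 1 lower at an unadjusted p under 0.05). This was PLA2G4C, the membrane-bound cytosolic form, at 0.692 ± 0.124 CPM against 0.130 ± 0.0188 CPM (SD, n = 3; fitted log2 fold change 2.39, standard error 0.304). It had 5 reads in each shCon library, passed the expression filter only through its reads in shCdGAP libraries, and was not tested when at least 10 reads were required in every sample. Secreted forms PLA2G2A and PLA2G5 had no read. PLA2G12A, also a secreted form, had 71.7 ± 7.19 CPM against 82.7 ± 1.38 CPM (SD, n = 3; log2 fold change -0.20). Without shCdGAP replicate 2, PLA2G12A (-0.30) and PLA2G15 (0.22) passed an adjusted p of 0.01 in edgeR. Among 10 tested genes of arachidonate remodelling, 5 rose and 1 fell (median 0.09). The long-chain acyl-CoA synthetase ACSL3 fell by 1.04 log2 units (standard error 0.0640, edgeR adjusted p = 2.22e-06), and its call needs shCdGAP replicate 3, without which the log2 fold change was -0.99. ACSL4, the synthetase that prefers arachidonate, rose by 0.75 (standard error 0.0324). MBOAT2 (0.37), ACSL1 (0.34) and MBOAT7 (0.30) also rose, though ACSL1 lost an adjusted p of 0.01 in edgeR without any 1 of the shCon libraries, and LPCAT1 rose by 0.14 but had an adjusted p of 0.0161 with replicate number as a block in edgeR. LPCAT1 also lost an adjusted p of 0.01 in edgeR without any 1 library other than shCdGAP replicate 2. Among 5 tested genes of platelet-activating factor, PLA2G7, its secreted hydrolase, rose by 1.20 (standard error 0.240, edgeR adjusted p = 0.00238), while PAFAH1B1 and PAFAH1B2, subunits of an intracellular hydrolase, fell by 0.21 and 0.22 (list median -0.21). PLA2G7 had a log2 fold change of 0.94 without shCdGAP replicate 2 and adjusted p of 0.0118 and 0.0132 by edgeR without shCon replicates 1 and 2, so its call needs each of these 3 libraries. Without shCon replicate 1, PAFAH1B1 lost an adjusted p of 0.01 in edgeR. The receptor PTAFR had 16, 18 and 18 reads against 26, 23 and 24.

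Of the 5 other prostanoid synthases that were tested, 4 rose and none fell (median 0.98, and none lower at an unadjusted p under 0.05 or by DESeq2). AKR1B1, an aldose reductase that can form prostaglandin F2 alpha, rose by 1.73 (standard error 0.206, edgeR adjusted p = 1.04e-04). AKR1C3, the prostaglandin F synthase, went from 17.4 ± 0.730 to 37.5 ± 1.10 CPM (SD, n = 3, log2 fold change 1.11, standard error 0.0526, edgeR adjusted p = 3.88e-07). The related genes AKR1C1 and AKR1C2 had 1.13 and 1.88, and reads that align to several of these genes were not counted. TBXAS1, thromboxane synthase, rose by 0.98, just under the fold limit, and passed it under library-size scaling (1.01) and without shCdGAP replicate 1 (1.02). CBR1, a carbonyl reductase, rose by 0.69. PTGDS had no read and HPGDS and PTGIS had at most 1 read in a library. Among 3 tested receptors, PTGFR for prostaglandin F2 alpha fell by 0.76 and TBXA2R for thromboxane rose by 0.80, none was called by edgeR or DESeq2, and each direction held 1 gene at an unadjusted p under 0.05 (list median 0.10). PTGER3, for the EP3 receptor of prostaglandin E2, had 8, 12 and 7 reads against 0, 3 and 2. It was not tested after the expression filter, and without that filter it passed an adjusted p of 0.01 by edgeR. Of transport and breakdown genes, 1 of 4 rose and 2 fell (median -0.18). ABCC4, the efflux pump MRP4 that exports prostaglandin E2, went from 89.0 ± 2.13 to 25.0 ± 2.47 CPM (SD, n = 3; log2 fold change -1.83, standard error 0.0667, edgeR adjusted p = 9.79e-08). ABCC4 lies on chromosome 13, where the 271 tested genes had a median of -0.99 and its own 5 neighbours within 500 kb lay between -2.78 and -1.36. PTGR2 rose by 0.35 but lost an adjusted p of 0.01 in edgeR without shCon replicate 1. PTGR1 fell by 0.23, with an adjusted p of 0.0121 under the replicate block in edgeR. PTGR1 also lost an adjusted p of 0.01 in edgeR without any 1 library other than shCdGAP replicate 2. The uptake carrier SLCO2A1 had no read. In the lipoxygenase list 2 of 9 genes were tested (median 0.58). ALOXE3 rose by 1.16 (standard error 0.193, edgeR adjusted p = 7.72e-04). LTA4H had -0.01, but -0.18 without shCdGAP replicate 2, where it passed an adjusted p of 0.01 by edgeR. ALOX5, the enzyme that opens the leukotriene route, had 0, 1 and 1 reads in shCdGAP libraries against 3, 6 and 8 in shCon libraries. ALOX12B had 8, 10 and 8 reads against 2, 0 and 0. Neither was tested after the expression filter, and without that filter both passed an adjusted p of 0.01 by edgeR.

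**Figure D4:**
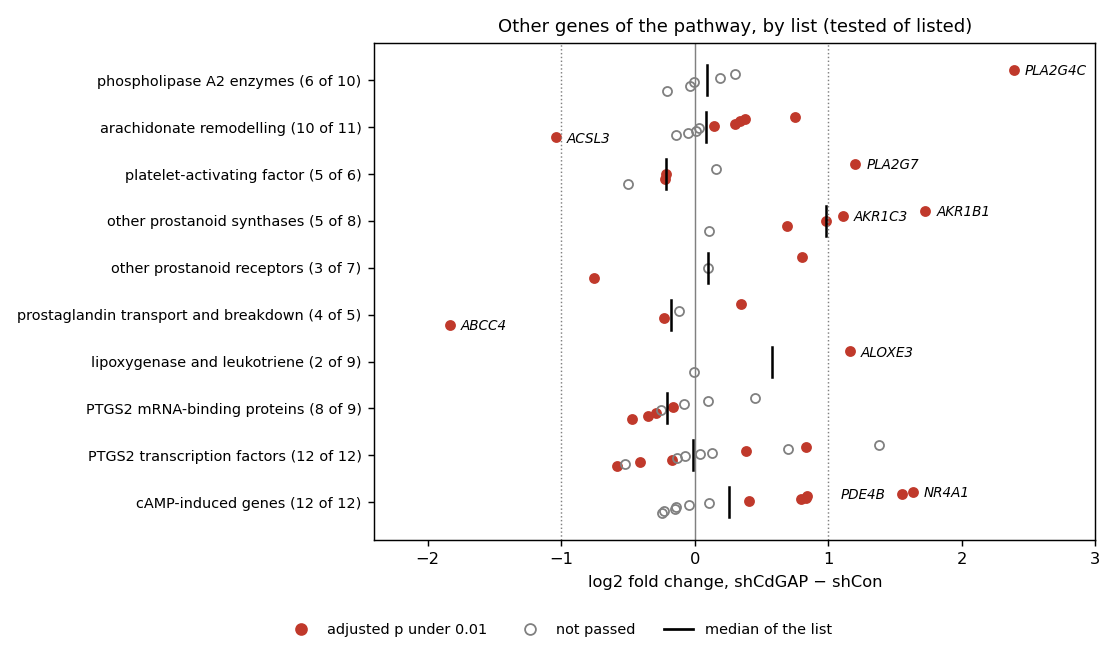
Log2 fold change (shCdGAP minus shCon) of the tested genes in the 10 further lists, with filled red points for an adjusted p under 0.01, open points for genes that did not pass, a black bar at each list's median and dotted lines at the fold limit. The 9 called genes are named. PLA2G4C and ABCC4 lay farthest out at 2.39 and -1.83, and the list of other synthases had the highest median, 0.98.

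Regulators that act on PTGS2 in other systems, and genes that cyclic AMP induces, made up the remaining lists. Of 8 tested proteins that bind PTGS2 mRNA, none rose by edgeR or DESeq2 and 4 fell by edgeR (median -0.21), namely HNRNPD by 0.47, ELAVL1 by 0.35, KHSRP by 0.29 and TIA1 by 0.16 on the log2 scale. TIA1 lost an adjusted p of 0.01 in edgeR without shCon replicate 1 or 2. ELAVL1 is known to stabilise AU-rich transcripts, and KHSRP and TIA1 to destabilise or silence them. No gene of this list was called by edgeR or DESeq2, and at an unadjusted p under 0.05 it held 2 higher and 5 lower genes. Over all tested genes 46.2% passed the stricter adjusted p of 0.01 by edgeR, so nothing is read from counts at the unadjusted limit. Of 12 transcription factors, 2 rose and 3 fell (median -0.02). Among those that fell, CREB1 lost an adjusted p of 0.01 in edgeR without shCdGAP replicate 1 or any 1 of the shCon libraries. JUN rose by 0.83 and CEBPB by 0.39, whereas CEBPD fell by 0.58, NFKB1 by 0.41 and CREB1 by 0.17, the last with an adjusted p of 0.0103 under the replicate block in edgeR. None was called by edgeR, 5 were higher and 4 lower at an unadjusted p under 0.05, and DESeq2 called NFATC2, as did edgeR with upper-quartile or library-size scaling or with at least 10 reads in every sample. NFATC2 had 714, 1490 and 563 reads against 353, 374 and 299, a log2 fold change of 1.38 with an edgeR adjusted p of 0.0106, and 0.00760 under the replicate block. It was called without shCdGAP replicate 1 (log2 fold change 1.53) and without shCdGAP replicate 3 (1.56), but without shCdGAP replicate 2, its highest library, the log2 fold change was 0.95 and under the fold limit. Of 12 genes that cyclic AMP induces in many cells, 6 rose and none fell by edgeR or DESeq2 (median 0.26, and 1 lower at an unadjusted p under 0.05). NR4A1, an orphan nuclear receptor, rose by 1.63 (standard error 0.154, edgeR adjusted p = 2.39e-05) and PDE4B, a cyclic AMP phosphodiesterase, by 1.56 (standard error 0.160, edgeR adjusted p = 4.08e-05). RGS2, DUSP1, CREM and AREG rose by 0.84, 0.83, 0.79 and 0.40. The other 6 of this list, among them NR4A2, NR4A3, SIK1 and PPARGC1A, lay between -0.25 and 0.11.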

How the data were processed

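Raw counts of read pairs per gene, deposited by the authors as 1 table per sample, were used for 3 shCdGAP and 3 shCon samples. Per the file headers they were made with featureCounts 1.6.0 on Ensembl release 77 (GRCh38), strand-specific, with both ends mapped. The methods and the submitters' processing notes name STAR 2.5.1b and featureCounts 1.4.6, and the methods a single-read kit. Multi-mapping reads were not counted, which lowers near-identical copies. From the counts, edgeR 4.0.16 (filterByExpr, TMM, robust quasi-likelihood test, Benjamini-Hochberg over 16439 genes) gave fold changes, with calls at an adjusted p under 0.01 and a log2 fold change above 1 in size. DESeq2 1.42.0 was an alternative. CPM used TMM-scaled library sizes, and RPKM divided CPM by the gene length in the files. The script for the fit was tested on simulated data. Same-numbered libraries deviated together (correlations 0.121, 0.126 and 0.117), which the labels do not explain, so a fit with the number as a block was run beside the unblocked fit of the study. The prostanoid genes, the 10 lists and the marker lists were chosen with earlier results of these data known. Named genes are the 10 genes, list members past the call thresholds (others of the lists were named after their values were seen), nearest or overlapping neighbours, the 5 genes nearest to PTGS2 among those whose average log2 CPM reached 3, and ARHGAP31. Results that need certain items of the marker list for genes lacking in PC-3 cells, and 1 neighbour, are not reported here.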

Additional observations from a re-analysis of the deposited data

How the results depend on the processing

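Of 118 recomputed log2 fold changes of the 10 prostanoid genes, 113 moved by less than 1 SD between libraries, 5 moved by more (PTGS1 and HPGD without shCdGAP replicate 2, and LPCAT2, PTGES2 and PTGES3 without shCon replicate 3) and none changed sign. The 4 calls among them (PTGS2, PTGS1, PLA2G4A and LPCAT2) became 2 with at least 10 reads required in every sample, because PTGS1 and LPCAT2 are then not tested, 3 with glmTreat, where PTGS1 was lost, and 7 with no fold limit. Leaving out 1 library gave 3 to 5: PTGS1 was lost without any 1 of the shCon libraries, and HPGD was gained without shCdGAP replicate 2. Without a fold limit PTGER2 passed in the full fit and without shCdGAP replicate 2, and lost an adjusted p of 0.01 without any other library. The 9 calls among other pathway genes became 3 with glmTreat, 35 with no fold limit and 8 to 11 with 1 library left out. They became 12 without the expression filter. With glmTreat the calls of ACSL3, PLA2G7, AKR1C3, AKR1B1, ALOXE3 and PDE4B were lost, at adjusted p of 0.0120 to 0.830. Without a fold limit, the 35 became 27 to 49 with 1 library left out, the lowest without shCon replicate 1 and the highest without shCdGAP replicate 2. The 2096 calls over all genes became 998 with glmTreat (658 higher and 340 lower), 7587 with no fold limit and 1867 to 2369 with 1 library left out. They became 1444 with at least 10 reads required in every sample and 2601 without the expression filter. With the replicate number as a block, 4 prostanoid genes, 10 other pathway genes and 2048 genes in all were called, and beyond the genes named with their blocked values the block changed no other call in the lists. DESeq2 called 4, 10 and 2117. Widening the window for neighbours from 500 kb to 1 Mb left the median log2 fold change of all neighbours at -0.21, but moved that of PTGS2's neighbours from 1.15 to 0.59 (from 0.36 to 0.47 without PLA2G4A) and that of LPCAT2's from the fitted 14.47 of MMP2 alone to 0.36 over 7 genes. The mean ratio of PTGS2 to PTGS1 in shCdGAP libraries was 437.6 per length and 398.2 by reads alone. Depth limits PTGS1 and LPCAT2 most, since both rest on at most 1 read per shCon library, and 3 libraries a group are too few for a test of single outlying libraries.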
